A study of Mus musculus with 8 samples.

Results

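Intergenic regions lying more than 1 kb and at most 50 kb from the nearest annotated gene start are described here, as listed in the deposited table of regions from sorted mouse microglial nuclei. A region was taken when it lay on chromosomes 1 to 19, was annotated as intergenic, had a distance to the nearest start site above 1000 bp and at most 50000 bp, and carried no repeat and no CpG island in its detailed annotation. Of 129304 listed regions, 21424 (16.6%) met the rule, and the rule used no measured value. Each region is 800 bp wide, and 8111 (37.9%) of the 21424 overlapped another listed region, so that neighbouring regions can share reads.

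The study measured acetylation of histone H3 at lysine 27 (H3K27ac) by chromatin immunoprecipitation and sequencing in brains of C57BL/6 mice aged 2 years. The 2 genotypes were wild type (WT) and GrnKO, with knockout of the progranulin gene Grn, whose allele the labels do not describe further. Nuclei were fixed and sorted as PU.1+, OLIG2- and NEUN-, and each replicate pooled sorted nuclei of 2 mice, so that it averages over both animals. Each genotype had 2 replicates, with H3K27ac and input (chromatin without immunoprecipitation) sequenced from each, giving 8 libraries.

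Acetylated H3K27 marks active enhancers and promoters, and intergenic stretches that carry it away from gene starts are commonly taken as candidate enhancers. In microglia, the macrophages of the brain, such distal elements are bound by PU.1 together with other factors and carry much of the cell's identity. Progranulin is a secreted protein that is also delivered to lysosomes, and its loss is known to cause lysosomal storage and microglial activation. The nearest gene named beside a region is the one in the table and need not be the gene that the region acts on.

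The table's annotation does not cover all transcripts. Coordinates are in mm10, the build named in the submitters' processing notes, and in the RefSeq annotation of that build (GRCm38.p6) 5704 (26.6%) of the 21424 regions overlapped a gene body, in 3355 cases that of a long non-coding RNA (lncRNA), and 432 held a start site. A whole RefSeq promoter window of 300 bases lay inside 310 regions, of which 181 had enough tags to be tested, 11 passed the test as higher and 11 as lower in GrnKO (of all tested intergenic regions, 9.06% and 3.75% did). For 2 higher and 2 lower regions holding such a window of an lncRNA, the 250 bases before the lncRNA start are shown. Not all such regions were ranked for this choice, so these need not be the ones with the smallest p. The printed bases are the stretches of these acetylated regions for which reference sequence was at hand. They are from RefSeq GRCm38.p6, 5′ to 3′ on the strand of the lncRNA, with matches to any of 3 motifs in capitals, of which only the Gm38855 stretch holds one.
Gm38855: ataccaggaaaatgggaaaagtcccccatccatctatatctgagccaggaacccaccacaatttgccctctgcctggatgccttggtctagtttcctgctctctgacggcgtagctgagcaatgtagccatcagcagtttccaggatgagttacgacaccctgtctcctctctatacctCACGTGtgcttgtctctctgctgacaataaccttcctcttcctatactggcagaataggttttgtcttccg
Gm34360: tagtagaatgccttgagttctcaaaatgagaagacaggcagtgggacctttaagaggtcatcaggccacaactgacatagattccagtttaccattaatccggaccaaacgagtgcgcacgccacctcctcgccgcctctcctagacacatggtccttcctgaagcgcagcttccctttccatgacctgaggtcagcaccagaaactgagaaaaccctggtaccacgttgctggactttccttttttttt
Gm32249: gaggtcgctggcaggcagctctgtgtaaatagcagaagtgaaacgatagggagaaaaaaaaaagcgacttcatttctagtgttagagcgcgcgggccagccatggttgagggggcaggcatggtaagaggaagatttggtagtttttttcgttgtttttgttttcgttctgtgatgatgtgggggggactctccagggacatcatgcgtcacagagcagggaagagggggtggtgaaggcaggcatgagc
Gm41046: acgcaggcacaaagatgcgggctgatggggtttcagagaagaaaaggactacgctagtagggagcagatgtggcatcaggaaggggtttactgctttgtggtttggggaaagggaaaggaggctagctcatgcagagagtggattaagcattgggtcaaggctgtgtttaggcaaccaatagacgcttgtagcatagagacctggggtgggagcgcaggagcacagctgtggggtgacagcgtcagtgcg

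The Gm38855 stretch lies at chr6:88053845-88054094 on the minus strand, the Gm34360 stretch at chr14:45664436-45664685 on the minus strand, the Gm32249 stretch at chr11:99168062-99168311 on the plus strand and the Gm41046 stretch at chr13:102666002-102666251 on the minus strand. The motifs searched on both strands were CACGTG, the E-box bound among others by the lysosomal regulators of the MiT/TFE family, TGANTCA, the site of AP-1, and GAGGAAGT, a core of the PU.1 site. Each motif was counted on its own, whether or not its match overlapped that of another. CACGTG was found in 1978 (6.02%) of 32851 RefSeq promoter windows of 250 bases and in 15 (4.41%) of the 340 windows inside the intergenic regions. TGANTCA was found in 6.75% of all windows and in 32 (9.41%) of the 340, and GAGGAAGT in 2.44% and in 18 (5.29%). Of the 25 windows in regions that passed the test, 1 held CACGTG, 2 held TGANTCA and 4 held GAGGAAGT. A match is a description of the letters and not a bound site.

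Of the 4 regions printed, both higher ones went from low to moderate acetylation. The Gm38855 region, which the table places 8679 bp upstream of Rab7, the small GTPase of late endosomes and lysosomes, had 27.4 and 21.7 scaled tags in WT and 111 and 106 in GrnKO, a log2 change of 2.11 (SE 0.29). Scaled tags are tags per 10000000 tags of the library after a further correction between libraries (TMM), and values are given in the order replicate 1, replicate 2. The Gm34360 region near Ddhd1, a phospholipase gene, had 20.7 and 12.8 in WT and 80.3 and 72.2 in GrnKO (log2 change 2.15, SE 0.35). The Gm32249 region, 13064 bp upstream of the chemokine receptor gene Ccr7, had 87.2 and 116 in WT and 39.0 and 33.5 in GrnKO (log2 change −1.45, SE 0.28). The Gm41046 region near Cd180, a Toll-like receptor homologue of myeloid and B cells, had 371 and 480.1 in WT and 256 and 278 in GrnKO (log2 change −0.66, SE 0.15). In all 4 the values of the genotypes did not overlap, and the limma adjusted p ranged from 0.00014 to 0.00879.

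The H3K27ac libraries held 15491642.5 to 20030832 tags and the inputs 4078179 to 14415969. WT replicate 1 stood apart, with 49.4% of its tags in listed regions against 63.3% in WT replicate 2 and 64.8% and 65.7% in GrnKO, so counts are also given without it. The region at the Grn start site had 294 and 311 tags per 10000000 in WT and 0 in both GrnKO libraries, and the one 631 bp upstream 585 and 573 in WT and 7.34 and 6.49 in GrnKO. A region in intron 7 of Grn, 4247 bp downstream of the start, went the other way, with 0.65 and 6.24 in WT and 36.1 and 49.9 in GrnKO. No region of the intergenic class had Grn as its nearest gene, since the one at 1024 bp upstream lies in a repeat. Summed H3K27ac at start sites of 7 of 8 microglial marker genes was 6922 and 7891 in WT and 5957 and 6212 in GrnKO, while that of neuronal markers ranged from 0.0 to 5.08, with Slc17a7 and Tubb3 at or under 3 tags in each library, and that of T and B cell markers from 0.0 to 2.74, with Cd2 likewise. The endothelial list had listed start-site regions for 2 of its 5 genes, Flt1 and Pecam1, and summed to 55.5 and 76.2 in WT and 173 and 180.4 in GrnKO. In sorted pools, fewer nuclei of one type and less acetylation per nucleus cannot be told apart.

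Acetylation of the intergenic regions was well above input in both genotypes. They took 8.13% and 10.5% of the tags of the WT H3K27ac libraries (9.30% ± 1.66, SD, n = 2) and 10.8% and 10.9% of the GrnKO libraries (10.8% ± 0.094, SD, n = 2). The WT value is lower through replicate 1, and the groups did not overlap. The exact two-sided permutation test gave p = 0.333, the smallest that 2 libraries against 2 allow. In the inputs the share was 0.696% to 0.805%, so that the H3K27ac share was 10.1 and 14.4 times that of the input in WT and 13.7 and 15.6 times in GrnKO. Counted within the tags of listed autosomal regions alone, the share was 16.8% in both WT libraries and 16.9% and 16.8% in GrnKO.

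Intergenic acetylation differed between the genotypes at many sites in both directions, and more often by gain than by loss. Of the 21424 regions, 11617 had enough tags to be tested and 1489 of these (12.8%) passed a limma adjusted p under 0.05, against 9.71% of all 80728 tested regions of the table. In GrnKO 1053 (9.06% of those tested) were higher, against 6.8% of all tested regions, and 436 (3.75%) were lower, against 2.92%. Higher regions made up 70.7% of the calls, close to the 69.98% over all tested regions of the table, and 805 of the higher and 127 of the lower ones changed at least 2-fold (5.22% and 1.05% of all tested regions did). Called higher regions had a median of 30.5 scaled tags in WT and 88.5 in GrnKO (median log2 change 1.48, range 0.44 to 5.52). Called lower regions had a median of 179 in WT and 104 in GrnKO (median log2 change −0.80, range −3.74 to −0.37). A region can pass the filter on low values through the genotype in which it is high, so that these levels are in part set by the choice of regions.

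**Figure D1:**
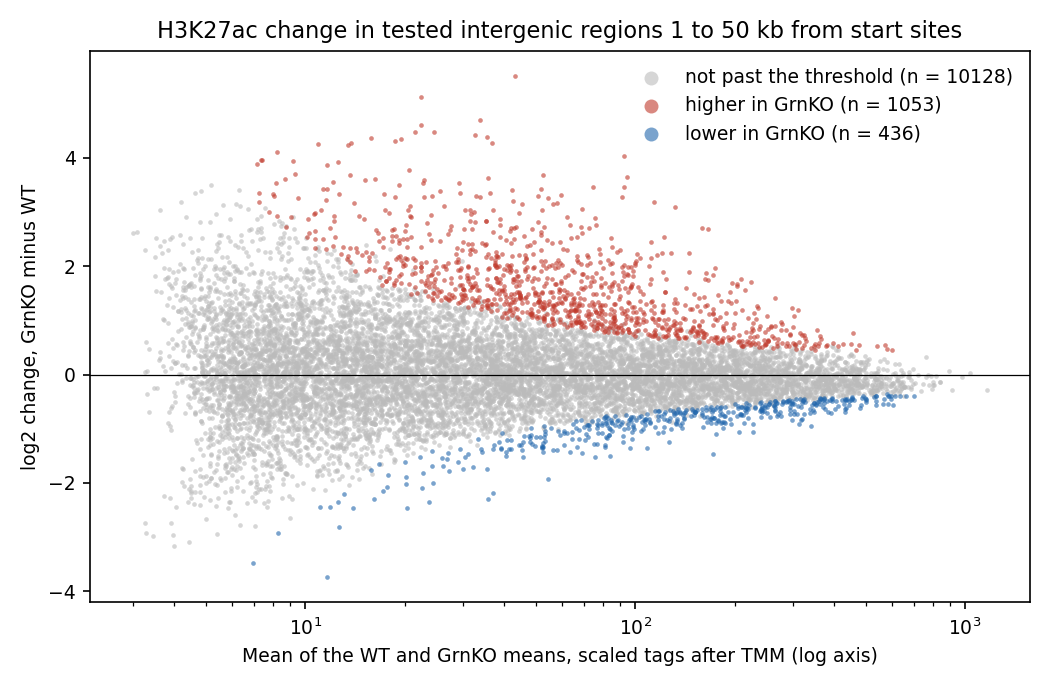
Log2 change of H3K27ac (GrnKO minus WT, y axis) against the mean of the genotype means in scaled tags (x axis, log scale) for the 11617 tested intergenic regions, 1 point each. The 1053 higher regions (red) reach far up at low and middle levels, while the 436 lower regions (blue) lie closer to 0 and at higher levels.

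The balance of gain and loss moved with the level, as the plot of change against level shows. When the tested regions were divided into 4 nearly equal groups by their summed genotype means, the weakest group had 40 higher and 6 lower calls, the next 233 and 34, the next 508 and 128, and the strongest 272 and 268. The share called was 1.58%, 9.19%, 21.9% and 18.6% in that order. The whole table followed a like course: in all tested regions at the same levels 1.26%, 7.65%, 13.7% and 16.2% were called, and 83.1%, 83.7%, 77.3% and 53.0% of these calls were higher, against 87.0%, 87.3%, 79.9% and 50.4% in the intergenic regions. In 3517 tested regions (30.3%, against 27% of all tested regions) both GrnKO values lay above both WT values, and in 3070 (26.4%, against 25.6%) both lay below. All 1489 called regions had such values without overlap. Of the higher regions, 28 had at most 3 tags in each WT library, which is 1.94 and 1.63 tags per 10000000, and their fitted change depends on the pseudocount. The median change of the higher regions is 1.48 also with these 28 at their bound, all of which lie above it, so that it could not move.

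The number of calls and the balance of gain and loss depend on how the libraries are put on one scale. With the authors' scaling to library totals and no TMM, the median log2 change over the whole table moved by 0.22, and 1231 regions were higher and 53 lower (8.15% and 0.412% of all tested regions in the table). With input set against H3K27ac in the same model, limma called 0 higher and 0 lower (1016 at an unadjusted p under 0.05), the median log2 change was −0.32, and 347 of the 1489 called regions had the opposite sign. The inputs were shallow, with 43.1% to 91.3% of listed regions at 0. Leaving out 1 library at a time, 1592 were higher and 811 lower without WT replicate 1 (9.86% and 5.16% of all regions tested then), and 1671 and 684 without WT replicate 2 (10.8% and 4.67%). The counts fell to 344 and 54 without GrnKO replicate 1 (2.0% and 0.398%) and to 454 and 142 without GrnKO replicate 2 (2.59% and 0.859%).

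Higher and lower regions were named by the smallest p, at most 1 per nearest gene, and the 12 of each direction are plotted by library. Among the 12 higher ones, the change was largest at C77080, Rgs8 and Kif13b. The region with the smallest p lay at chr6:49012829-49013629, 13613 bp upstream of the non-coding gene 4930563H07Rik. It had 28.2 and 25.9 scaled tags in WT and 234 and 239.7 in GrnKO, and no tag in any input (log2 change 3.09, SE 0.24, limma adjusted p = 8.36e-07). It sits in the same stretch as the Gpnmb region described further on.

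**Figure D2:**
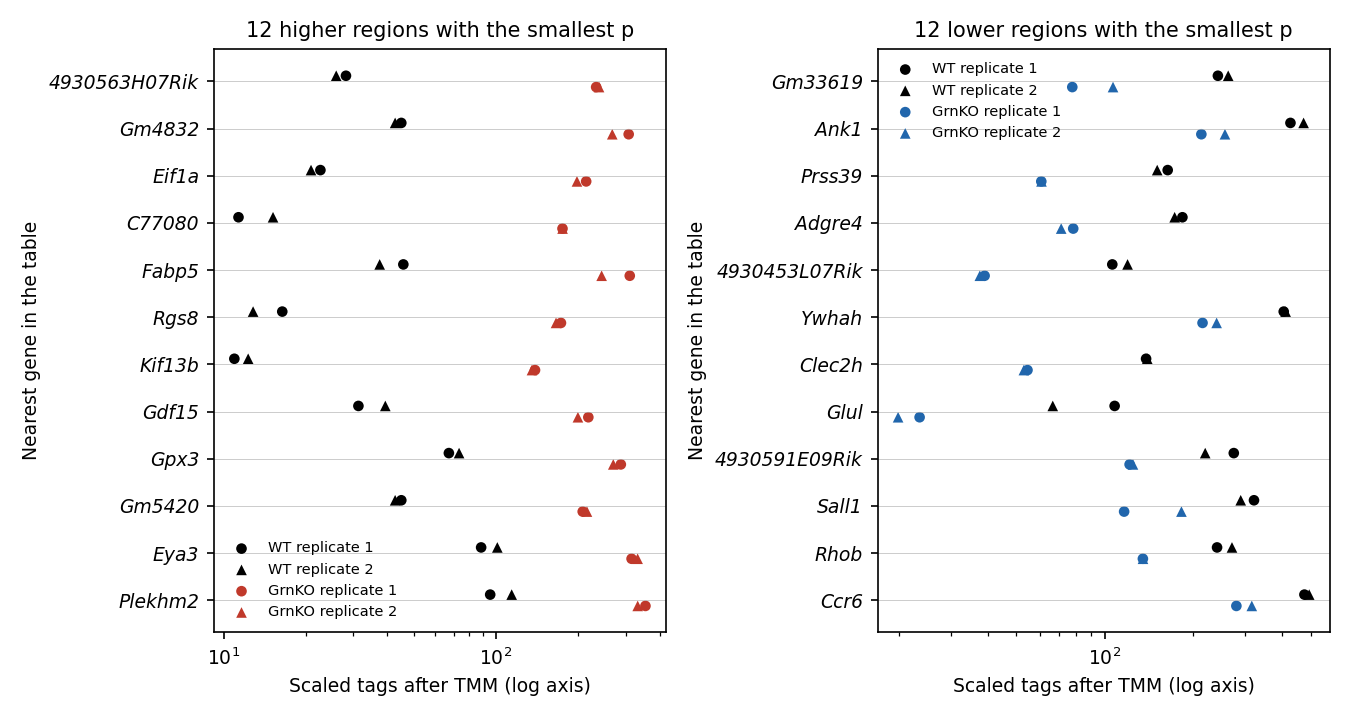
H3K27ac in scaled tags after TMM (x axis, log scale) of the 12 higher (left) and 12 lower (right) regions with the smallest p, 1 row per nearest gene, with 1 symbol per library (circles replicate 1, triangles replicate 2) and WT in black. In every row both GrnKO symbols lie on one side of both WT symbols.

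Fabp5, which encodes a carrier of fatty acids, had the region at chr3:10023349-10024149, 11164 bp downstream of its start, with 45.8 and 37.5 in WT and 311 and 245 in GrnKO (log2 change 2.71, SE 0.22, limma adjusted p = 1.36e-06). The WT inputs held 142 and 0.0 tags per 10000000 there and the GrnKO inputs 0.0 and 16.3, so that WT input replicate 1 exceeded the WT H3K27ac value there. Of 9 regions assigned to Fabp5, 7 were tested and 6 were higher, all between 7959 and 13413 bp downstream and overlapping in part. The region at C77080 (2163 bp upstream) had 11.3 and 15.2 in WT and 176 in both GrnKO libraries (log2 change 3.65, SE 0.30). At Rgs8, a regulator of G-protein signalling, a region 35099 bp downstream had 16.4 and 12.8 in WT and 174 and 167 in GrnKO. A region 24199 bp upstream of the kinesin gene Kif13b had 10.9 and 12.3 in WT and 139 and 136 in GrnKO. There WT input replicate 1 held 25.75 tags per 10000000, above both WT H3K27ac values, and the other inputs held none. The Rgs8 and Kif13b regions both had a log2 change of 3.46, and in all regions of this paragraph given with values the lowest GrnKO library was several times the highest WT library.

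Gdf15, a stress-induced secreted factor of the TGF-beta family, had a region 12929 bp upstream with 31.3 and 39.3 in WT and 219 and 200.5 in GrnKO (log2 change 2.55, SE 0.24). Gpx3, a secreted glutathione peroxidase, had one 17723 bp upstream with 67.3 and 73.3 in WT and 288 and 270.4 in GrnKO (log2 change 1.98, SE 0.19). Plekhm2, an adaptor that couples lysosomes to kinesin, had one 6357 bp upstream with 95.4 and 114 in WT and 355 and 332 in GrnKO (log2 change 1.71, SE 0.17). WT levels at these regions were higher than at C77080 or Kif13b. The remaining 4 of the 12 lay near Eif1a, a translation initiation factor gene with all 6 of its tested regions higher, near Eya3, a transcriptional coactivator gene, and near the predicted genes Gm4832 and Gm5420. Their log2 changes were 3.19, 1.76, 2.69 and 2.25. All 12 also passed with the authors' scaling, without WT replicate 1 and with edgeR on the recovered reads.

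Among the 12 lower regions, the smallest p was at chr10:21191792-21192592, 5248 bp downstream of the predicted gene Gm33619, with 242 and 262 scaled tags in WT and 77.5 and 107 in GrnKO (log2 change −1.46, SE 0.20, limma adjusted p = 0.00013). Near Ank1, which links membrane proteins to the spectrin skeleton, a region 11893 bp upstream had 427 and 473 in WT and 213 and 256 in GrnKO (log2 change −0.94, SE 0.15). Near Adgre4, an adhesion receptor of myeloid cells, one 13106 bp upstream had 183 and 173 in WT and 78.1 and 71.1 in GrnKO (log2 change −1.25, SE 0.20). GrnKO levels at these sites stayed well above input, which was at most 16.04 tags per 10000000 there.

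Sall1 encodes a transcription factor that defines microglia among macrophages. Its region 2369 bp upstream had 321 and 289 in WT and 116 and 182 in GrnKO (log2 change −1.06, SE 0.19, limma adjusted p = 0.00175). The adjusted p was 0.054 with the authors' scaling and 0.0907 without GrnKO replicate 1, and the contrast with input gave a log2 value of 1.65 (adjusted p = 0.849 by limma), where WT input replicate 2 held 27.8 tags per 10000000 and the other inputs none. Glul, which encodes glutamine synthetase, had a region 49154 bp downstream with 108 and 66.5 in WT and 23.5 and 19.8 in GrnKO, which is the largest fall of the 12 (log2 change −1.92, SE 0.33). The chemokine receptor gene Ccr6 had one 24696 bp upstream with 476 and 494 in WT and 279.7 and 316 in GrnKO (log2 change −0.71, SE 0.13), whose adjusted p was 0.314 with the authors' scaling and 0.101 without GrnKO replicate 1. The others lay near Clec2h, a C-type lectin gene, Ywhah, a 14-3-3 protein gene, Rhob, Prss39, 4930453L07Rik and 4930591E09Rik, with log2 changes of −1.35, −0.84, −0.92, −1.35, −1.53 and −0.99. With the authors' scaling 6 of the 12 lower regions kept an adjusted p under 0.05, and the calls at Ank1, Ywhah, 4930591E09Rik, Sall1, Rhob and Ccr6 were lost.

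Most loci that gained or lost acetylation held a single called region, and some held runs. Joining called regions of one direction within 10000 bp gave 676 higher loci, of which 433 held 1 region and 35 held 4 or more, and 296 lower loci, of which 206 held 1 region and 14 held 4 or more. The gene with the most higher regions was the non-coding gene 4930512J16Rik on chromosome 6, with 12 of 14 tested. Its region with the smallest p, 29597 bp downstream, had 22.7 and 25.9 in WT and 162 and 127 in GrnKO (log2 change 2.52, SE 0.27). The 12 lay on both sides of the start, from 14306 bp upstream to 29597 bp downstream, with log2 changes from 1.19 to 4.39. The gene with the most lower regions was Prss39, a serine protease gene on chromosome 1, with 8 of 11 tested, and 6 of them formed 1 locus of 4785 bp upstream of the gene. The strongest region of that locus by p had 163 and 151 in WT and 60.8 and 60.9 in GrnKO.

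Few genes had called regions in both directions, which a gene with only 1 called region cannot have. The 21424 regions were assigned to 7854 genes, of which 3378 had 1 region and 4181 had a tested region. The median was 2 regions per gene, and no expected number of genes with both directions was worked out. Only higher calls were found at 623 genes, only lower calls at 267, and both at 11, namely Atp6v1g3, Bmf, Cd300a, Cyb5a, Hsd17b4, Mcl1, Mgll, Mir760, Rhob, Ubl3 and Wdr26. Rhob, a small GTPase of endosomes and a gene of the homeostatic microglia list, had 20 tested regions. Its 4 lower regions lay 3549 to 6453 bp downstream of the start, where the one with the smallest p had 241 and 270.3 in WT and 135 in both GrnKO libraries. Its 2 higher regions lay upstream, where the one at 7485 bp had 11.7 and 6.81 in WT and 94.8 and 64.4 in GrnKO (log2 change 2.99, SE 0.41, but −1.27 in the contrast with input) and the one at 9888 bp had 13.7 and 18.3 in WT and 60.0 and 76.1 in GrnKO. Inputs of the region at 7485 bp held 0.0 in WT and 10.1 and 20.4 tags per 10000000 in GrnKO. The 4 tested Rhob regions between them, 1403 to 2702 bp upstream, had log2 changes from −0.30 to −0.03 and did not pass the test.

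Promoters of the same genes were called in the direction of the intergenic calls in a minority of cases. Of the 623 genes with only higher intergenic calls, 461 had a tested region within 1000 bp of the start, and at 105 (22.8%) such a region was higher, at 2 lower. Of the 267 genes with only lower calls, 185 had one, and at 39 (21.1%) it was lower, at 4 higher. Among the 3280 genes whose tested intergenic regions were not called, 2184 had one, and 118 (5.40%) were higher and 78 (3.57%) lower. Over all tested regions within 1000 bp of a start 5.18% were called, with 3.57% higher and 1.61% lower. Promoter and distal regions come from the same 4 libraries, and no test of these shares was run. Regions on either side of the 1000 bp limit can also overlap and share reads, and such pairs were not removed.

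Regions near genes of disease-associated microglia, a state with raised phagocytic and lipid genes found around damage and plaques, were called higher with none lower. Of 128 tested, 34 (26.6%, against 9.06% over all tested intergenic regions) were higher and none lower (against 3.75%), at 13 genes, with a median log2 change of 0.47 against 0.04 over all tested intergenic regions. At an unadjusted p under 0.05 limma had 60 higher and 2 lower, and edgeR and DESeq2 called 30 and 32 higher and none lower. Without WT replicate 1, WT replicate 2, GrnKO replicate 1 and GrnKO replicate 2 in turn, 39, 57, 12 and 20 were higher and 1, 2, 0 and 0 lower. Of the 34, 6 are the partly overlapping Fabp5 regions, and of 67 tested regions that overlap no other 19 were higher. In the 4 level groups of all tested intergenic regions, from weakest to strongest, 1.38%, 8.02%, 17.5% and 9.37% were higher. Neither this list nor the others were matched for level. The list was drawn up with earlier results of these data known, as were all lists used here. Beyond the 2 regions per list and direction with the smallest p at different genes, list genes are named as chosen after their values were seen, and so are the regions outside the lists that are not among the 12 per direction.

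Gpnmb, a membrane glycoprotein of late endosomes and lysosomes that is induced in lipid-laden macrophages, had the largest fitted rise of any called intergenic region. Its region at chr6:49020865-49021665, 15253 bp upstream, had 0.39 and 1.57 scaled tags in WT and 85.4 and 85.6 in GrnKO, and none in the inputs. The WT libraries held 0.5 and 3.0 tags there and the GrnKO libraries 151 and 185.5, a ratio of 77.9 (95% Clopper-Pearson interval 28.4 to 324, counting error only). The fitted log2 change of 5.52 (SE 0.58, limma adjusted p = 1.43e-05) depends on the pseudocount. Together with 3 regions assigned to 4930563H07Rik it formed a run of 13931 bp with a median log2 change of 3.52.

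Several genes of the list had more than one higher region. Lgals3, a lectin of damaged endolysosomes, had 5, from 6306 to 22854 bp upstream, and the one at 8672 bp had 60.2 and 56.6 in WT and 135 and 144 in GrnKO. Igf1, a growth factor secreted by activated microglia, had 4, and the one 15990 bp upstream had 41.1 and 28.5 in WT and 144 and 101 in GrnKO. Cd9, a tetraspanin, had 4 with log2 changes of 0.68 to 0.98. Fth1, the heavy chain of ferritin, had 3, and the one 2627 bp upstream had 65.7 and 78.8 in WT and 194 and 189.6 in GrnKO. Timp2, an inhibitor of metalloproteinases, had 3, Csf1 and Cd63 had 2 each, and Clec7a, Tyrobp, Ctsd, Ccl3 and Gpnmb had 1. At Clec7a, a receptor for fungal glucans, the region 1919 bp upstream had 26.6 and 38.8 in WT and 100.1 and 82.6 in GrnKO.

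Lipid genes followed the same direction, in a list that shares Fabp5 with the previous one. Of 55 tested regions near genes of lipid uptake and cholesterol efflux, 17 (30.9%, against 9.06% over all tested intergenic regions) were higher and none lower (against 3.75%), at 8 genes, 6 of them the same Fabp5 regions, with a median log2 change of 0.66. None was lower at an unadjusted p under 0.05 in limma or called lower by edgeR or DESeq2, which called 17 and 16 higher. Leaving out each library gave 10 (without GrnKO replicate 1) to 24 higher and at most 1 lower. Pparg, a lipid-sensing nuclear receptor, had a region 17187 bp upstream with 7.82 and 22.8 in WT and 123 and 94.8 in GrnKO (log2 change 2.91, SE 0.40, limma adjusted p = 0.000159). Plin2, which coats lipid droplets, had 4 higher regions, and the one 20418 bp upstream had 4.30 and 8.38 in WT and 57.4 and 55.8 in GrnKO (log2 change 3.03, SE 0.46). Mylip, which degrades the LDL receptor, had a region with 30.1 and 37.7 in WT and 120.2 and 105 in GrnKO. Abcg1, a cholesterol exporter, Lrp1, an endocytic lipoprotein receptor, Insig1, which restrains sterol synthesis, and Scd2, a fatty acid desaturase, had 1 higher region each, with log2 changes of 1.12, 0.66, 1.53 and 1.41.

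In the fit to all 4 H3K27ac libraries, regions near lysosomal genes were called higher about as often as intergenic regions in general. Of 105 tested, 11 were higher (10.5%, against 9.06% over all tested intergenic regions), at 9 genes, and 1 was lower (0.952%, against 3.75%), with a median log2 change of 0.20. Without WT replicate 1, WT replicate 2, GrnKO replicate 1 and GrnKO replicate 2 in turn, 21, 32, 3 and 5 were higher and 7, 2, 0 and 1 lower. Atp6v1g1, a subunit of the proton pump, had a region 3570 bp upstream with 31.3 and 23.3 in WT and 83.7 and 99.4 in GrnKO (log2 change 1.72, SE 0.30, limma adjusted p = 0.00113). Hpse, a lysosomal heparanase, had one with 62.6 and 86.4 in WT and 178 and 159.6 in GrnKO, and Psap, the precursor of saposins and a partner of progranulin, one with 56.7 and 42.2 in WT and 104 and 105 in GrnKO. Lamp1, Ctsd, Atp6v0c and Atp6v1c1 had higher regions with log2 changes of 0.80, 0.56, 0.61 (and 1.54) and 0.56.

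In the autophagy list 2 of 16 tested regions were higher and none lower by limma, edgeR or DESeq2 (3 and 0 at an unadjusted limma p under 0.05), a share of 12.5% higher against 9.06% over all tested intergenic regions, both near Sqstm1, the cargo receptor p62, and overlapping each other. The one 2829 bp upstream had 106 and 79.9 in WT and 300.1 and 299 in GrnKO (log2 change 1.69, SE 0.19, limma adjusted p = 2.14e-05). Of 13 tested regions near genes of MiT/TFE and mTORC1 nutrient signalling, limma, edgeR and DESeq2 each called none, and 1 had an unadjusted limma p under 0.05. The one with the smallest p lay near Sesn2, a stress-induced inhibitor of mTORC1, with 55.5 and 28.3 in WT and 76.4 and 60.0 in GrnKO (log2 change 0.76, SE 0.33, limma adjusted p = 0.165), and its adjusted p was 0.00158 without WT replicate 1.

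Homeostatic microglial genes, those of the resting state, showed losses at more regions than gains. Of 144 tested regions, 19 (13.2%, against 3.75% over all tested intergenic regions) were lower, at 9 genes, and 8 (5.56%, against 9.06%) higher, at 5, with a median log2 change of −0.23. With the authors' scaling none was lower and 8 were higher, and the median was 0.00. Without WT replicate 1 the counts were 35 lower and 9 higher, without WT replicate 2 they were 15 and 9, without GrnKO replicate 1 they were 1 and 2, and without GrnKO replicate 2 they were 10 and 2. In the 4 level groups of all tested intergenic regions, from weakest to strongest, 0.207%, 1.17%, 4.41% and 9.23% were lower. The list was not matched for level. Cx3cr1, the fractalkine receptor, had 3 lower regions, of which the one 4012 bp upstream had 325 and 324 in WT and 169 and 208 in GrnKO (log2 change −0.79, SE 0.16). Csf1r, the receptor on which microglia depend for survival, had 1 with 359.8 and 386 in WT and 245 and 253 in GrnKO. Cst3, a cysteine protease inhibitor, had 4, and Selplg, a selectin ligand, had 3. Gas6, a bridge to apoptotic cells, went the other way, with 154 and 166 in WT and 264 and 285 in GrnKO 9521 bp upstream (log2 change 0.78, SE 0.16, limma adjusted p = 0.00492, but 0.0581 without GrnKO replicate 1 and 0.119 without GrnKO replicate 2), as did Fcrls, Olfml3 and Mef2a and the upstream Rhob regions.

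**Figure D3:**
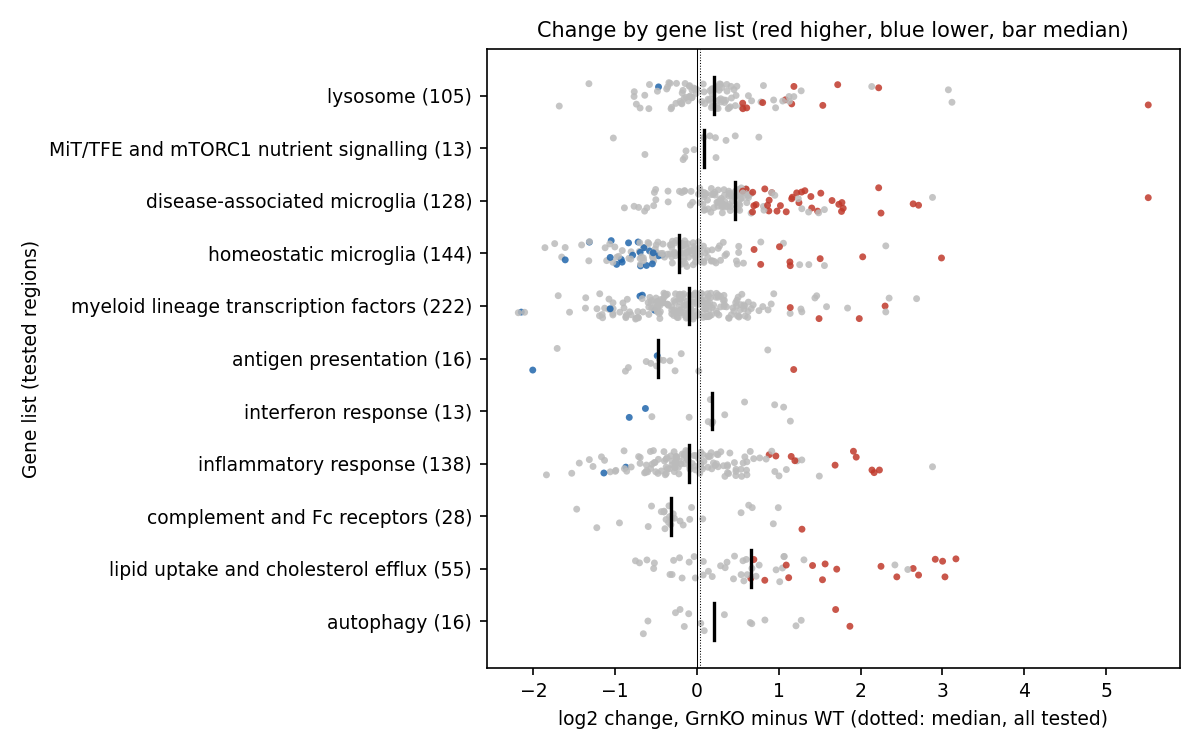
Log2 change (GrnKO minus WT, x axis) of tested intergenic regions by the list of their nearest gene (y axis, number tested in brackets), 1 point per region, with the list's median as a bar. Red points (higher) lie in the rows of disease-associated and lipid genes without a blue one, and the homeostatic row holds the most blue points (lower), 19 of 144.

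Transcription factors of the myeloid lineage had the most tested regions and few calls, 4 higher and 5 lower of 222 (1.80% and 2.25%, against 9.06% and 3.75% over all tested intergenic regions), with a median log2 change of −0.09 that was 0.13 with the authors' scaling. That scaling gave 5 higher and 1 lower. Without WT replicate 1, WT replicate 2, GrnKO replicate 1 and GrnKO replicate 2 in turn, 8, 10, 1 and 2 were higher and 20, 7, 0 and 2 lower. Egr1, an immediate early factor, had a region 23671 bp downstream with 21.1 and 18.9 in WT and 123 and 84.9 in GrnKO (log2 change 2.30, SE 0.31). Mef2a had a weaker one with 29.3 and 20.4 in WT and 53.2 and 57.2 in GrnKO, whose adjusted p was 0.0405 and was 0.291 without GrnKO replicate 1, 0.326 without GrnKO replicate 2 and 0.0525 with edgeR. Bach1, a repressor of heme and redox genes, had one that fell from 28.9 and 28.3 in WT to 5.37 and 6.00 in GrnKO (log2 change −2.15, SE 0.53), with an adjusted p of 0.0152 that was 0.0958 without GrnKO replicate 1 and 0.0529 without GrnKO replicate 2. Lower regions were also found near Batf3, Sall1 and Smad7, and higher ones near Smad3.

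Inflammatory genes had 10 higher and 2 lower regions of 138 tested (7.25% and 1.45%, against 9.06% and 3.75% over all tested intergenic regions), with a median log2 change of −0.10 that was 0.12 with the authors' scaling. Without WT replicate 1, WT replicate 2, GrnKO replicate 1 and GrnKO replicate 2 in turn, 19, 15, 3 and 7 were higher and 10, 3, 0 and 0 lower, and of 76 tested regions that overlap no other 3 were higher. The higher ones belonged to 5 genes. Tnfaip3, which encodes the inhibitor A20, had 2, of which the one 16224 bp downstream had 15.3 and 17.8 in WT and 89.4 and 73.4 in GrnKO (log2 change 2.23, SE 0.33). Nfkbia, which encodes the inhibitor that holds NF-kappaB in the cytoplasm, had 3 neighbouring regions, of which the middle one had 25.03 and 12.05 in WT and 75.2 and 62.1 in GrnKO. Tlr2, a pattern receptor gene, had 3, and the chemokine genes Ccl3 and Ccl2 had 1 each, that of Ccl3 with 185 and 177 in WT and 319 and 349.7 in GrnKO. At Ccl3 the GrnKO inputs held 6.24 and 34.7 tags per 10000000 and the WT inputs none, and the contrast with input gave a log2 value of −3.42 (limma adjusted p = 0.259). Lower regions were near Il6, with 59.1 and 67.3 in WT and 22.9 and 34.4 in GrnKO, and near Ccl12, with 126 and 94.0 in WT and 52.3 and 66.4 in GrnKO. Their adjusted p were 0.0327 and 0.0349, but 0.124 and 0.206 with the authors' scaling and 0.463 and 0.446 without GrnKO replicate 1.

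Antigen presentation, interferon and complement lists were small, and their counts stand against 9.06% higher and 3.75% lower over all tested intergenic regions. Near antigen presentation genes 1 of 16 tested regions was higher and 2 were lower. H2-D1, a class I molecule, had 38.3 and 68.9 in WT and 131 and 106 in GrnKO. Cd74, the class II invariant chain, had 41.5 and 36.7 in WT and 5.66 and 13.8 in GrnKO, and H2-DMb2, which loads class II molecules, 487 and 436 in WT and 325 and 332 in GrnKO. Without GrnKO replicate 1 their adjusted p of 0.0112, 0.013 and 0.0236 became 0.171, 0.211 and 0.336, and that of H2-DMb2 was 0.643 with the authors' scaling. Of 13 interferon response regions 2 overlapping ones near Ifitm3, an antiviral membrane protein, were lower, the one with the smaller p with 456 and 364 in WT and 255 and 206 in GrnKO, and its adjusted p of 0.00242 became 0.171 with the authors' scaling and 0.0574 without GrnKO replicate 2. Of 28 regions near complement and Fc receptor genes only that of C3ar1, the C3a receptor, was called, with 46.1 and 44.8 in WT and 130.4 and 96.2 in GrnKO, and its adjusted p of 0.00353 became 0.181 without GrnKO replicate 1. At an unadjusted limma p under 0.05, 3 of the 28 were higher and 7 lower, and 4 and 5 were called lower without WT replicate 1 and WT replicate 2.

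Marker genes of other cell types also had called regions nearby, of 6 tested on the endothelial list, 4 on the oligodendrocyte list, 1 on the astrocyte list and 6 on the border macrophage and monocyte list, numbers too small to set against 9.06% higher and 3.75% lower over all tested intergenic regions. All 3 regions called higher on the endothelial list were near Flt1, a receptor for VEGF, and the one with the smallest p had 70.4 and 55.3 in WT and 169 and 155 in GrnKO, while the region of Pecam1 was lower, with 21.9 and 28.0 in WT and 7.35 and 6.00 in GrnKO. Near oligodendrocyte genes 2 overlapping regions of Mbp were higher and 1 of Mog was lower, near the astrocyte transporter gene Slc1a3 1 was higher, and near Ccr2, a receptor of monocytes, 1 was lower. Start-site acetylation of the astrocyte list ran from 186 to 211 in WT and from 186 to 216 in GrnKO, and that of the oligodendrocyte list from 66.3 to 107 in WT and from 71.3 to 84.6 in GrnKO. The Slc1a3 call was lost with edgeR, and the Pecam1 and Ccr2 calls with the authors' scaling. The part of other cells in the calls was not tested.

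The strongest intergenic regions did not pass limma's threshold, and 2 of the 5 did under some alternatives but not under others. The 5 highest by mean WT signal lay near Xirp1, Spi1, Hs1bp3, Ncf1 and Slc39a13. Spi1 encodes PU.1, the factor used for the sort, and is known to have an upstream enhancer in myeloid cells. Its region 13111 bp upstream had 901 and 1157 in WT and 1022 and 1057 in GrnKO (log2 change 0.03, SE 0.11), with overlapping groups. The region near Ncf1, a subunit of the phagocyte NADPH oxidase, had 957 and 1032 in WT and 925 and 992 in GrnKO. Nearest to Xirp1, the strongest region had 1187 and 1373 in WT and 1011 and 1091 in GrnKO (log2 change −0.28, SE 0.10), and its adjusted p of 0.0742 became 0.0428 with DESeq2, 0.041 with a minimum of 30 tags, 0.00963 with the replicate block and 6.37e-05 without WT replicate 1. That of Hs1bp3, with 1016 and 989 in WT and 752 and 901 in GrnKO, was 0.0971 and became 0.0198 with the block and 0.0342 and 0.049 without WT replicate 1 and WT replicate 2.

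By distance from the gene, the share called was 10.9% of 2471 tested regions at 1 to 5 kb, 13.3% of 2053 at 5 to 10 kb, 13.4% of 3929 at 10 to 25 kb and 13.3% of 3164 at 25 to 50 kb. Regions upstream of the nearest start were called in 12.8% of 8661 tested and downstream ones in 12.9% of 2956. At 25 to 50 kb downstream, 11.6% were higher and 2.77% lower, the widest split of the bins, and at 1 to 5 kb downstream 3.45% were higher and 4.83% lower, of only 145 tested. No test of these shares was run, since neighbouring regions are not independent.

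**Figure D4:**
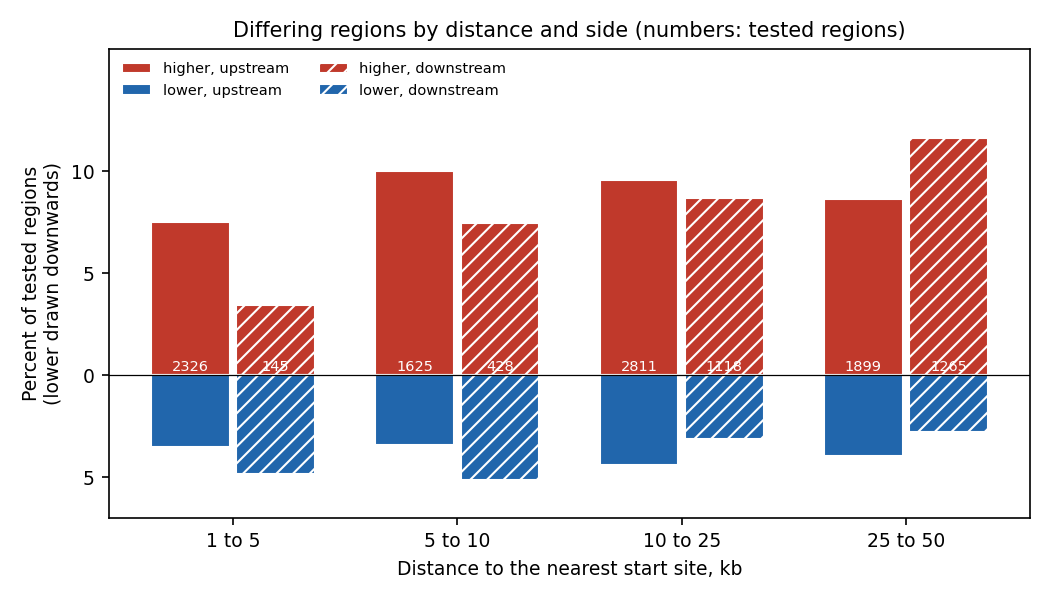
Percent of tested intergenic regions called higher (red, upwards) or lower (blue, downwards) in GrnKO by distance to the nearest start site (x axis, kb) and side (plain upstream, hatched downstream), with the number tested on each bar. Higher calls exceed lower ones in every bin except 1 to 5 kb downstream.

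At the edges of the rule, the 514 tested regions from 1000 to 1500 bp had 7.98% called. No listed intergenic region free of repeats lay from 500 to 1000 bp. At 45 to 50 kb 17.3% of 457 were called and at 50 to 55 kb 17.4% of 407. Between chromosomes the share called ran from 7.91% of 354 tested on chromosome 16 to 16.6% of 615 on chromosome 6. Higher calls outnumbered lower ones on all 19, narrowly on chromosome 9 with 33 and 31. The 8353 tested regions outside RefSeq gene bodies had 13.3% called, and the 1978 that overlap an lncRNA body 12.6%.

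The intergenic regions were set beside those most like them. Intergenic regions more than 100 kb from a start had 13.7% of 2272 tested called (8.93% higher and 4.75% lower), and first-intron regions over 1000 bp from a start 10.5% of 11302 (7.61% and 2.85%). The median log2 level of the tested intergenic regions at 1 to 50 kb was above that of the tested more distant ones in each library, by 0.31 and 0.30 in WT and by 0.28 and 0.26 in GrnKO. Against tested first-intron regions it differed by 0.03 and −0.04 in WT and by 0.12 and 0.08 in GrnKO, and against all other tested regions by −0.05 and −0.09 in WT and 0.08 and 0.04 in GrnKO. In all 3 comparisons the genotypes did not overlap, the difference between genotype means was −0.03, 0.10 and 0.13, and the exact two-sided permutation p was 0.333, the smallest that this test can give with 2 libraries against 2. A region can pass the filter through the genotype in which it is high, so that these differences are in part set by the filter. Over all listed regions, tested or not, the median of the genotype means at 1 to 50 kb was 6.66 scaled tags in WT and 6.22 in GrnKO. It was 6.18 and 5.46 at over 100 kb, 14.0 and 15.1 in first introns, and 11.4 and 11.9 in all regions outside the class.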

How the data were processed

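H3K27ac and input libraries of 2 genotypes were analysed from 1 deposited table. Per the file headers, the authors gave each 800 bp region a signal of tags scaled to 10000000 tags per library. The submitters' processing notes name Bowtie2, HOMER, DESeq2 and the build mm10, with no roles. The steps of their use are not given in the sources used here. From the library totals in the headers, whole read ends (2 per tag) were recovered for 100% of the values, within the 0.0041 to 0.02 read ends that rounding to 2 decimals allows.

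Regions were kept with filterByExpr (minimum 10 tags) and scaled by TMM (edgeR 4.0.16), and log2(scaled tags + 1) was tested with limma 3.58.1 (trend, R 4.3.3) over the 4 H3K27ac libraries, with Benjamini-Hochberg adjustment over all 80728 tested regions and a threshold of 0.05. The pseudocount of 1 understates changes of low regions. Pools within a genotype come from different mice, and p-values measure the spread between these pools. The script was tested on simulated data. Alternatives were edgeR and DESeq2 1.42.0 on recovered reads, other scalings, filters and pseudocounts, an input contrast, a replicate block and leaving out each library. Floors and intervals cover counting error only.

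Named regions were the 12 per direction with the smallest p whose groups do not overlap, 1 per gene; the 2 per gene list and direction with the smallest p at different genes; the 5 strongest in WT; and the gene with the most calls in each direction. The members and lists were chosen with earlier results of these data known. Region sequences were not used here beyond RefSeq promoter windows, because no mm10 genome was at hand. Of 15706 regions whose nearest gene matched RefSeq by symbol, 14429 (91.9%) had their start site within 10 bp of RefSeq's. Some results of the gene lists are not reported here.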

Additional observations from a re-analysis of the deposited data

How the results depend on the processing

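With 2 pools per genotype, the counts of called regions depended on single libraries, and a lone library left in a group was assumed to vary like the other group. The total of 1489 ranged from 398 (without GrnKO replicate 1) to 2403 (without WT replicate 1), the 1053 higher from 344 to 1671, the 436 lower from 54 to 811, and the percent higher of 70.7 from 66.3 to 86.4. Lower calls numbered 53 with the authors' scaling, 197 with no filter, 716 with the replicate block and 751 at an adjusted p under 0.1. The percent higher was 95.9 with the authors' scaling and 81.8 with no filter. At least 2-fold changes gave 932 in total with 127 lower and 86.4% higher. Regions that overlap no other gave 672 in total, 478 higher and 194 lower. The contrast of H3K27ac over input gave 0 in total, 0 higher and 0 lower by limma, with 1016 at an unadjusted p under 0.05. It gave 347 of the 1489 called regions the opposite sign, among them 3 named ones, with log2 values of 1.65 at Sall1, −1.27 at the upstream Rhob region and −3.42 at Ccl3, with adjusted p of 0.849, 0.813 and 0.259. The cause was not tested. edgeR and DESeq2 on recovered reads gave 1302 and 1426, and edgeR on whole tags, chosen after seeing the data, gave 1452.

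The replicate block gave 2114 calls, 1398 higher and 716 lower, and all 1489 were among them. Of all tested regions in the table, 14.1% were called with the block, 9.17% higher and 4.94% lower. Same-numbered pools are different mice, and the numbers were not taken as pairs, since deviations from the genotype means correlated by 0.045 over the tested intergenic regions. Replicate number went with sex-linked signal in both genotypes, so that the block is also one on that difference. In the first WT and GrnKO pools H3K27ac at Y start sites was 5.81 and 0.0 and at Xist 81.7 and 128, while the second pools had 269.6 and 220.2 at Y start sites and 0.0 and 5.49 at Xist. The labels give no sex, its part in the calls was not tested, and the intergenic regions are all autosomal.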
